A study of Homo sapiens with 9 samples.

Results

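The genes described here were 10 regulators and read-outs of TGF-beta and BMP signalling: the ligand BMP2, the receptor-activated SMAD3, the inhibitory SMAD6 and SMAD7, the corepressors SKI, SKIL and TGIF1, the ubiquitin ligases SMURF1 and SMURF2, and the BMP target ID1. They were taken by symbol from a table of 62710 gene identifiers, each identifier once. The rule itself used no expression value, but the genes were chosen with earlier results of these data known. Their RNA was counted by poly(A) RNA sequencing in HT-29, an established human colorectal adenocarcinoma cell line, in the wild-type form of the line. The 9 libraries came from 3 groups of 3: non-stimulated cells, cells given flagellin at 500 ng/mL and cells given ADP-heptose at 500 ng/mL, each for 2.5 h. Flagellin is the bacterial flagellum protein sensed by TLR5, and ADP-heptose is a sugar nucleotide of Gram-negative lipopolysaccharide synthesis sensed inside the cell by the kinase ALPK1. HT-29 is known to lack functional SMAD4, and all 3 groups share this.

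TGF-beta and activin ligands bind paired receptor kinases that phosphorylate SMAD2 and SMAD3, whereas BMP ligands signal through SMAD1, SMAD5 and SMAD9, and in both branches the activated SMAD joins SMAD4 to bind DNA. SMAD6, SMAD7, SKI, SKIL, TGIF1 and the SMURF ligases restrain this signal at the receptor, at the SMAD complex or by protein turnover, and several of them are themselves induced by it. In the intestine TGF-beta limits epithelial growth while BMP signalling favours differentiation away from the crypt base, and colorectal tumours often lose a component of these pathways.

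The libraries held 30770448 to 58272772 counts each. The stimuli were visible in 4 NF-kappaB target genes fixed as checks, whose log2 fold changes against non-stimulated cells after ADP-heptose and after flagellin were 7.68 and 2.49 for CXCL8, 8.01 and 4.74 for CCL20, 3.94 and 0.68 for NFKBIA, and 4.76 and 1.27 for TNFAIP3. Of 7 epithelial markers, EPCAM, CDH1, KRT8, KRT18, KRT20 and VIL1 were at 107 CPM or more in every library, while CDX2 was at 1.40 CPM or less. The endothelial and fibroblast markers CDH5, COL1A2 and DCN and the T cell marker CD3E were at 0 in all libraries. LYZ, counted as a leukocyte marker, was at 340 to 449 CPM and COL1A1 at 12.7 to 17.5 CPM. One library stood apart: log2 levels of 12220 genes in ADP-heptose replicate 3 differed from those in the other ADP-heptose libraries with an SD of 0.38 and 0.385, against 0.137 to 0.205 for the other pairs of replicates. In that library genes with short transcripts (at most 2269 bases) lay a median of 0.33 log2 units above its group mates, and genes with long ones (at least 5324 bases) lay 0.29 units below, so results that rest on it are given with and without it. Among the feedback genes 8 of 10 were lower in that library than the mean of its group mates, and the 2 that were higher, ID1 and TGIF1, had the shortest transcripts of the 10, at 1233 and 3030 bases. Whether transcript length set these differences was not tested.

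RefSeq promoter windows of 300 bases, from 250 before to 50 after a transcription start on GRCh38.p14, were matched for 8 of the 10 genes with 20 windows in all, and BMP2 and SKI had no entry. They are shown for the 3 matched genes that rose after ADP-heptose, SMAD3, SKIL and SMURF1, so that the start regions of RNAs that rose together can be read side by side. Capitals mark CAGAC on either strand (GTCTG on the opposite strand), the element bound by SMAD3 and SMAD4, and in SMAD3 also the match to the NF-kappaB (kappaB) consensus. The sequences read 5′ to 3′ on the strand of the gene.
SMAD3, chr15:67065352-67065651, plus strand: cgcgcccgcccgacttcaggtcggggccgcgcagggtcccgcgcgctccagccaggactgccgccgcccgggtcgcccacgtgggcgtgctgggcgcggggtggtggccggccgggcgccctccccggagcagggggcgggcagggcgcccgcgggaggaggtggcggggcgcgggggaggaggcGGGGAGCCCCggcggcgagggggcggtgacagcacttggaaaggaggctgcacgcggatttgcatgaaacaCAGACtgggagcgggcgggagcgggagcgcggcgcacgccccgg
SKIL, chr3:170357465-170357764, plus strand: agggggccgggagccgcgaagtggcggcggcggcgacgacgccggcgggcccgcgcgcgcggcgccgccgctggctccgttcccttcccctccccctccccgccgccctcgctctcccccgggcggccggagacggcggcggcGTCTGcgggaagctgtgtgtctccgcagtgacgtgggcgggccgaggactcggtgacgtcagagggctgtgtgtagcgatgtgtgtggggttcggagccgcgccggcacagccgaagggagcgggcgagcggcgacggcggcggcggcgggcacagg
SMURF1, chr7:99144059-99144358, minus strand: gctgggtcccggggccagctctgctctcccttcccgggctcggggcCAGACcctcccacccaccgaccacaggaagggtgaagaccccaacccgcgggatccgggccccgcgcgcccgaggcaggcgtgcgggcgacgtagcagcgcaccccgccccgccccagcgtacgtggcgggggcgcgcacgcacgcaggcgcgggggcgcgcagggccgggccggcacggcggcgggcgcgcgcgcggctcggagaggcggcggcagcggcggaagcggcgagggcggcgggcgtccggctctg
The SMAD3 window shown, 1 of 5 for that gene, was the one with the lowest coordinates. It held the single kappaB match among the 20 windows (5.0%), 65 bases before the start on the minus strand. Such a match was found in 5.909% of 35116 promoter windows of the same length. A SMAD3 window not shown held 4 CAGAC matches. CAGAC was found on either strand in 13 of the 20 windows and in 45.261% of all windows. GGCGCC, bound by BMP-activated SMADs, was in 2 of 20 windows and 19.216% of all. TGANTCA, a loose form of the AP-1 element with any base at N, was in 4 of 20 windows and 7.709% of all. Counted by gene, CAGAC was in windows of 6 genes, GGCGCC of 2 and TGANTCA of 2, SMAD3 and TGIF1. The TGANTCA match of SMAD3 read TGAGTCA and lay in a window not shown. Those of TGIF1 read TGAATCA or TGATTCA, without the C or G that the usual AP-1 element has at N. The share of windows with that stricter form was not counted. The matches are descriptions of these letters, which are short and frequent. Windows of 1 gene can overlap each other, so counts of windows are not counts of genes or of separate sites.

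After ADP-heptose, BMP2, SKIL, SMAD3 and SMURF1 rose, by 4.76-fold, 1.89-fold, 1.77-fold and 1.40-fold, and none of the 10 genes fell. Called here means a Benjamini-Hochberg adjusted p under 0.05 over the 17412 genes tested in the edgeR quasi-likelihood test. All 10 genes passed the filter on low counts. The 4 of 10 called higher stand against 7.48% of all genes tested, and the 0 of 10 called lower against 4.42%. Only BMP2 also passed 2-fold, which 2.89% of all genes did in that direction. For 5 of the genes, TGIF1 being the fifth, the lowest ADP-heptose library was above the highest non-stimulated one, against 15.4% of all genes. Because the genes were chosen with earlier results known, counts above such shares, here and below, are not independent support. A change in the share of cells that carry a transcript and a change in RNA per cell cannot be told apart in such bulk samples.

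**Figure D1:**
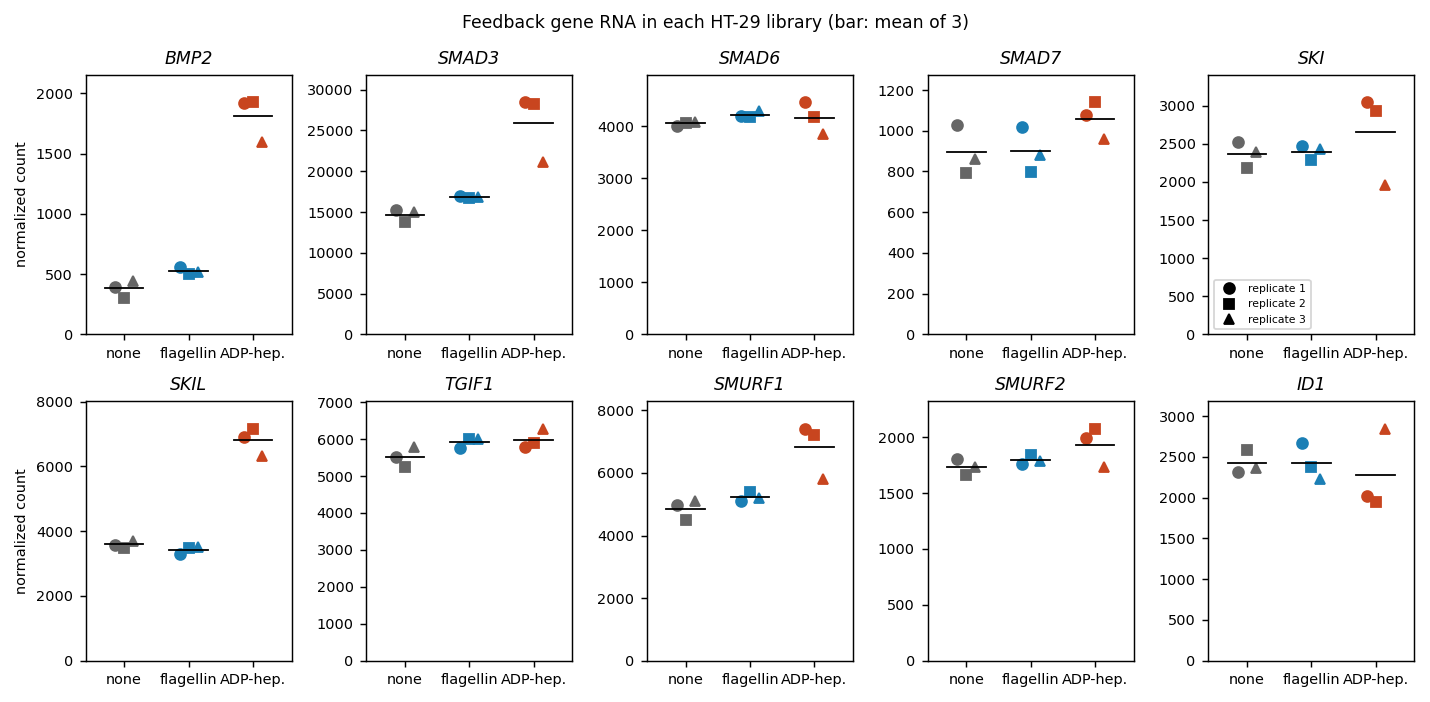
Normalized counts (library totals scaled by TMM factors) of the 10 feedback genes in each of the 9 HT-29 libraries, 1 panel per gene with its own vertical axis from 0, in non-stimulated, flagellin and ADP-heptose cells. Symbols give the replicate and the bar the mean of 3: BMP2, SKIL, SMAD3 and SMURF1 lie higher in all 3 ADP-heptose libraries, and the triangle of ADP-heptose replicate 3 lies apart for SMAD3, SKI, SMURF1 and ID1.

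BMP2, a secreted ligand of the BMP receptors (chromosome 20, 6767664 to 6780280, plus strand), changed most. Its normalized counts in replicates 1 to 3 were 397, 306 and 441 in non-stimulated cells, 557, 499 and 518 with flagellin, and 1923, 1926 and 1600 with ADP-heptose. The ADP-heptose libraries were far above the other 6, and the flagellin libraries were all a little above the non-stimulated ones. The log2 fold change after ADP-heptose was 2.25 (SE 0.13, 95% interval 1.97 to 2.53, adjusted p = 1.6e-07) and it stayed between 2.12 and 2.37 with any 1 library left out. After flagellin it was 0.46 (SE 0.13, interval 0.17 to 0.75, adjusted p = 0.508), which did not pass, although the unadjusted p was 0.0044. The flagellin value was past the threshold, at 0.45, when ADP-heptose replicate 3 was left out of the fit (adjusted p = 0.0089), when the 6 libraries were fitted alone (adjusted p = 0.039) and without the filter on low counts (adjusted p = 0.034). ADP-heptose exceeded flagellin by 1.79 log2 units (SE 0.13, adjusted p = 1.5e-06).

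SMAD3, which carries TGF-beta and activin signals to DNA (chromosome 15, 67063763 to 67195195, plus strand), was the most abundant of the 10 genes in counts. It had 15244, 13748 and 14991 normalized counts in non-stimulated cells, 16951, 16749 and 16900 with flagellin, and 28445, 28216 and 21081 with ADP-heptose. All ADP-heptose libraries were above all others, with replicate 3 the lowest of them. The log2 fold change was 0.82 (SE 0.10, interval 0.59 to 1.05, adjusted p = 1.9e-04), and 0.95 without ADP-heptose replicate 3. With flagellin the 3 libraries lay just above the non-stimulated ones, and the difference was 0.20 (SE 0.10, interval -0.03 to 0.43, adjusted p = 1), not past the threshold. That difference kept its size of 0.20 and passed without ADP-heptose replicate 3 (adjusted p = 0.0064) and in a fit of the 6 libraries alone (adjusted p = 0.017), settings in which the estimate of the spread does not include that library. ADP-heptose exceeded flagellin by 0.62 (SE 0.10, adjusted p = 0.0022). SMAD3 shares 182 exon bases with the opposite-strand transcript AC087482.1, which had 76 counts or fewer in every library.

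The inhibitory SMADs compete with receptor-activated SMADs at the receptors and recruit the SMURF ligases to them, SMAD6 mainly in the BMP branch and SMAD7 in both. SMAD6 lies on the same chromosome as SMAD3, ending 280.914 kb before it (66702228 to 66782848). Its normalized counts spanned 4000 to 4088 in non-stimulated cells, 4182 to 4286 with flagellin and 3843 to 4457 with ADP-heptose, so that the ADP-heptose libraries surrounded both other groups. The log2 difference after ADP-heptose was 0.04 (interval -0.11 to 0.19, adjusted p = 0.76). SMAD7 (chromosome 18, 48919853 to 48952052, minus strand) had 1030, 794 and 861 normalized counts in non-stimulated cells, 1021, 795 and 880 with flagellin and 1077, 1139 and 960 with ADP-heptose. One non-stimulated and one flagellin library reached into the ADP-heptose range. Its log2 difference after ADP-heptose was 0.24 (interval -0.02 to 0.50, adjusted p = 0.23), and it passed, at 0.31 (adjusted p = 0.019), only without ADP-heptose replicate 3. Flagellin left SMAD6 and SMAD7 with differences of 0.06 (interval -0.09 to 0.21) and 0.01 (interval -0.26 to 0.27).

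SKI and SKIL (SnoN) are related corepressors that bind SMAD complexes at target genes, and SKIL is itself a classical TGF-beta target. They moved unequally. SKIL (chromosome 3, 170357678 to 170396835, plus strand) had 3580, 3485 and 3705 normalized counts in non-stimulated cells, 3308, 3481 and 3508 with flagellin, and 6913, 7163 and 6320 with ADP-heptose. Every ADP-heptose library was well above the other 6, among which flagellin and non-stimulated cells overlapped. The log2 fold change was 0.92 (SE 0.07, interval 0.77 to 1.07, adjusted p = 1.7e-06) against non-stimulated cells and 0.99 (SE 0.07, adjusted p = 1.4e-06) against flagellin. Flagellin itself gave -0.07 (interval -0.22 to 0.09, adjusted p = 1).

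SKI (chromosome 1, 2228695 to 2310119, plus strand) had 2521, 2187 and 2393 normalized counts in non-stimulated cells, 2467, 2286 and 2430 with flagellin, and 3043, 2936 and 1966 with ADP-heptose. ADP-heptose replicates 1 and 2 were the highest of the 9 libraries and replicate 3 was the lowest. The log2 difference after ADP-heptose was 0.16 (interval -0.13 to 0.46, adjusted p = 0.48), and it was 0.34 (adjusted p = 4.9e-05) without replicate 3, so the call for SKI rests on whether that library is used. TGIF1, a homeodomain corepressor of SMAD2 and SMAD3 (chromosome 18, 3411608 to 3459978, plus strand), had its groups side by side. Its normalized counts were 5507, 5235 and 5775 in non-stimulated cells, 5746, 6015 and 5996 with flagellin, and 5778, 5893 and 6282 with ADP-heptose. The lowest ADP-heptose library was just above the highest non-stimulated one, and the log2 difference was 0.12 (interval -0.02 to 0.26, adjusted p = 0.285). It turned to -0.02 when libraries were scaled by their totals. After flagellin SKI and TGIF1 differed by 0.02 (interval -0.28 to 0.31) and 0.10 (interval -0.04 to 0.25).

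SMURF1 and SMURF2 are HECT-type ubiquitin ligases that mark SMADs and their receptors for degradation. SMURF1 (chromosome 7, 99027438 to 99144100, minus strand) had 4964, 4506 and 5099 normalized counts in non-stimulated cells, 5096, 5380 and 5196 with flagellin, and 7416, 7230 and 5822 with ADP-heptose. All ADP-heptose libraries were the highest, replicate 3 much nearer to the other groups than its mates. The log2 fold change was 0.49 (SE 0.09, interval 0.29 to 0.69, adjusted p = 0.0038), and 0.60 without replicate 3. Against flagellin it was 0.39 (SE 0.09, adjusted p = 0.021), a call lost in 8 of 17 alternatives. These included leaving out ADP-heptose replicate 1 or 2 or any flagellin library (adjusted p = 0.073 to 0.11), a fit of the 6 libraries alone (adjusted p = 0.068) and library totals (0.27, adjusted p = 0.14). SMURF1 shares 735 exon bases, 11.7% of its own, with TRRAP on the opposite strand, and since the sources used here do not say whether counting used strand, its counts are uncertain to that extent. TRRAP was not called, with a log2 difference of -0.21 (SE 0.16, adjusted p = 0.42).

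SMURF2 (chromosome 17, 64542295 to 64662068, minus strand) had 1802, 1659 and 1735 normalized counts in non-stimulated cells, 1757, 1841 and 1788 with flagellin, and 1992, 2076 and 1732 with ADP-heptose. Replicates 1 and 2 were above every other library and replicate 3 was within the non-stimulated range. The log2 difference was 0.16 (interval -0.02 to 0.34, adjusted p = 0.25), and it passed at 0.24 without replicate 3 (adjusted p = 0.0045) and at 0.27 with offsets that even out transcript length and GC (adjusted p = 0.0028). It shares 167 exon bases, 2.40% of its own, with CEP95 on the opposite strand, whose log2 difference was 0.17 (adjusted p = 0.16). After flagellin SMURF1 and SMURF2 differed by 0.11 (interval -0.10 to 0.31) and 0.05 (interval -0.13 to 0.23), neither past the threshold.

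ID1 is an inhibitor of basic helix-loop-helix factors and the standard read-out of BMP signalling (chromosome 20, 31605283 to 31606515, plus strand). It did not follow BMP2 upwards, and the ligand BMP4, given below, fell. ID1 had 2313, 2586 and 2360 normalized counts in non-stimulated cells, 2667, 2374 and 2232 with flagellin, and 2023, 1950 and 2846 with ADP-heptose. ADP-heptose replicates 1 and 2 were the lowest of all 9 libraries and replicate 3 was the highest. The log2 difference after ADP-heptose was -0.09 (interval -0.38 to 0.19, adjusted p = 0.70). It was called lower at -0.28 (adjusted p = 0.0022) without replicate 3 and at -0.33 (adjusted p = 9.3e-04) with those offsets. After flagellin the difference was 0.0032 (interval -0.28 to 0.29).

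**Figure D2:**
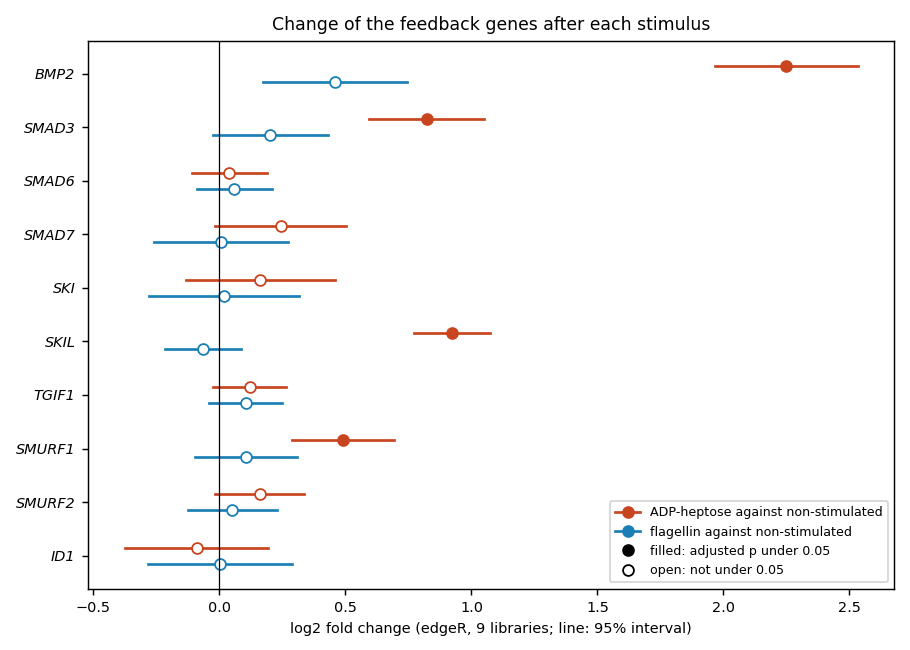
Log2 fold changes of the 10 feedback genes after ADP-heptose and after flagellin, each against non-stimulated cells, with 95% intervals from the edgeR fit of 9 libraries. Filled points have an adjusted p under 0.05: they are BMP2 (2.25), SKIL (0.92), SMAD3 (0.82) and SMURF1 (0.49) after ADP-heptose, and none after flagellin, whose points lie between -0.07 and 0.46.

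In the fit of all 9 libraries flagellin called none of the 10 genes in either direction, where 0.368% of all genes tested were called higher and 0.0115% lower. At an unadjusted p under 0.05 there was 1 gene, BMP2, and the DESeq2 test also called none. Without ADP-heptose replicate 3 flagellin called 2 of 10 higher, BMP2 and SMAD3, against 0.918% of all genes. The same 2 were called in a fit of the 6 libraries alone, against 0.835%. The flagellin libraries lay above every non-stimulated one for BMP2, SMAD3 and SMAD6, 3 of 10, against 7.66% of all genes. With 64 genes called higher and 2 lower in the fit of all 9 libraries, flagellin moved few genes anywhere at this time. The absence of calls among the 10 in that fit sits beside a low background. Set directly against flagellin, ADP-heptose gave 4 of 10 genes called higher, again BMP2, SKIL, SMAD3 and SMURF1, against 5.4% of all genes, and 0 lower, against 2.76%. The 3 ADP-heptose libraries lay above all flagellin libraries for those 4 genes, against 14.2% of all genes. The other 6 genes differed between the stimuli by -0.09 to 0.24 log2 units, none past the threshold. The comparisons share their libraries and are not independent of each other.

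Without ADP-heptose replicate 3 the number of feedback genes called higher against non-stimulated cells went from 4 to 7, with SKI, SMAD7 and SMURF2 added, and ID1 was called lower. The share of all genes called moved too in that fit, to 11.2% higher and 7.07% lower. The same genes were added in the comparison with flagellin, where 10% of all genes were called higher and 5.14% lower. With the offsets, an alternative chosen after seeing the data, 6 were called higher, with TGIF1 (0.17, adjusted p = 0.048) and SMURF2 added, and ID1 again lower, against 9.63% and 7.31% of all genes. BMP2, SKIL, SMAD3 and SMURF1 were called higher against non-stimulated cells under all 17 alternatives of scaling, filter, test, block and left-out library.

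**Figure D3:**
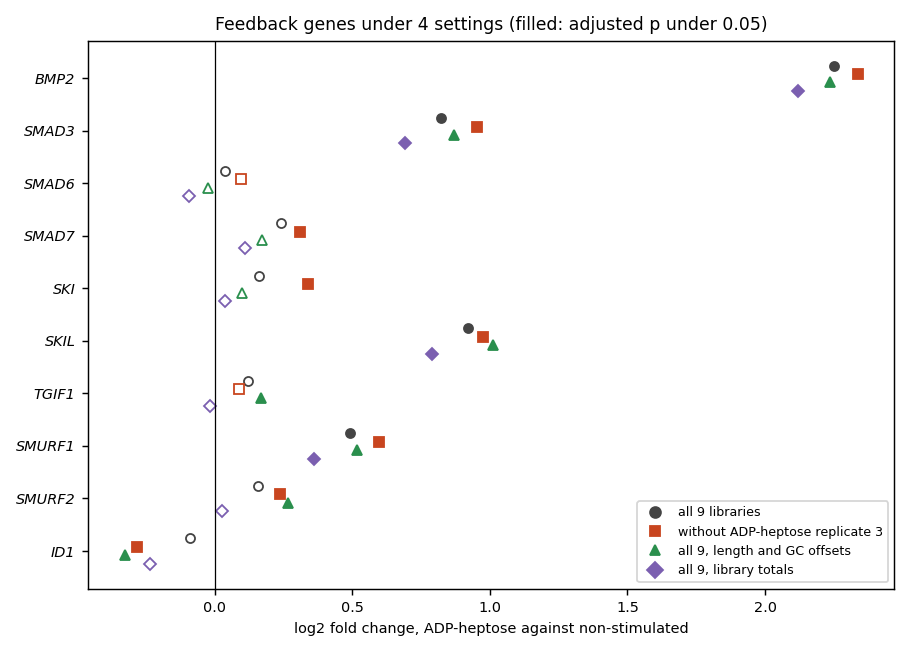
Log2 fold change of each feedback gene, ADP-heptose against non-stimulated, under 4 settings: all 9 libraries, without ADP-heptose replicate 3, with length and GC offsets, and with libraries scaled by their totals. Filled symbols have an adjusted p under 0.05: the top 4 changes are filled throughout, whereas SMAD7, SKI, SMURF2, TGIF1 and ID1 are filled in 1 or 2 settings, and library totals shift every value down.

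Levels per length, in RPKM (read counts scaled for exon length and for TMM-adjusted depth), ordered the genes differently from the counts. The length was the union of all annotated exons (exon-union length). For TGIF1 it was 8222 bases against 3030 in its longest transcript, and for SMAD3 9113 against 6247. The order between genes depends on this choice, and no other length was used. In non-stimulated cells ID1 was at 48.7 ± 2.94 RPKM (SD, n = 3) and SMAD3 at 39.9 ± 2.18. They were followed by SMURF1 at 19.2, TGIF1 at 16.6, SMAD6 at 11.7, SKIL at 11.4, SKI at 9.66, SMURF2 at 6.17, SMAD7 at 4.41 and BMP2 at 2.63. Of the neighbours in that order only SMAD6 and SKIL overlapped. With flagellin the order of means was the same, and ID1 (44.9 to 53.7) and SMAD3 (45.6 to 46.2) overlapped.

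With ADP-heptose, and on these exon-union lengths, SMAD3 came first at 70.6 ± 11.4 RPKM. Its lowest library was at 57.4 and the highest ID1 library at 57.3, so that the 2 ranges nearly touched. On the same lengths SKIL passed TGIF1, at 21.7 ± 1.38 against 18.1 ± 0.796. BMP2 went from the lowest place to 12.5 ± 1.29 RPKM, where its libraries overlapped those of SMAD6, which in turn overlapped those of SKI. SMURF2 at 6.89 and SMAD7 at 5.22 were then the lowest.

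**Figure D4:**
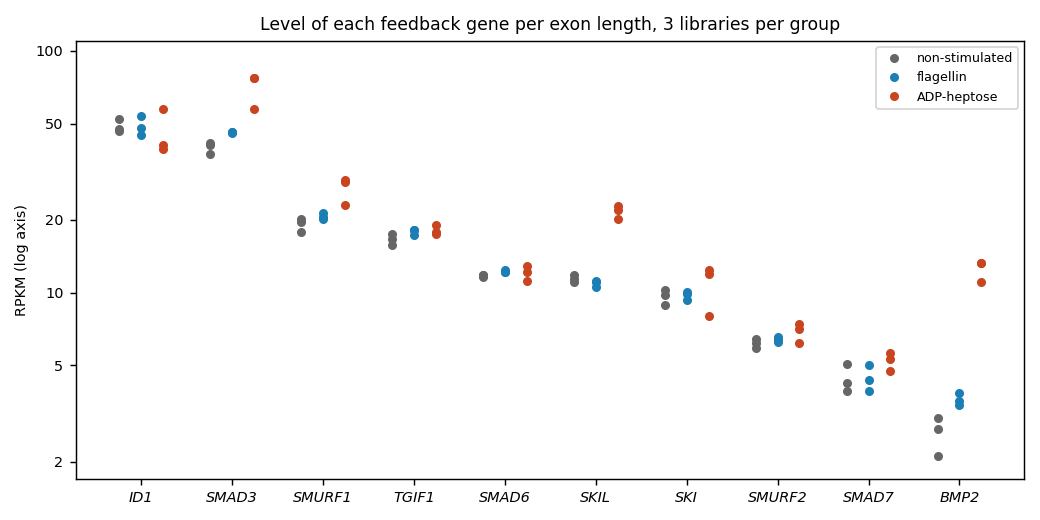
Level of each feedback gene in RPKM on a log axis, 1 point per library, in non-stimulated, flagellin and ADP-heptose cells, ordered by the non-stimulated mean. BMP2 moves from 2.63 to 12.5 RPKM and SMAD3 from 39.9 to 70.6 with ADP-heptose, while SMAD6, TGIF1 and SMURF2 keep near their levels.

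The rest of the pathway was read from 9 lists by role, 132 genes of which 102 passed the filter. AMHR2, BMP6, GATA3, ID3 and MSX1 reached the filter's cutoff in fewer than 3 libraries once 1 of the groups was set aside. They were left out of the counts below. This screen covered only genes tested with all 9 libraries, not those that entered when a library was left out. After ADP-heptose 19 of the other 97 rose and 14 fell, against 7.48% and 4.42% of all genes, and the median log2 difference was 0.02, against 0.0087 over all genes tested. In a fit of the 6 libraries alone it was 17 and 8 of 97, against 5.65% and 2.5% of all genes. After flagellin 1 of 97 rose and 0 fell, against 0.368% and 0.0115% of all genes. Without ADP-heptose replicate 3 the flagellin count was 7 of 101, with ITGAV, ATF3, CDKN1A and PDGFB among those added, against 0.918% of all genes, and in a fit of the 6 libraries alone it was 6 of 97, against 0.835%. The lists were chosen with earlier results of these data known.

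Among upstream genes, more receptors were called lower than higher, and the ligands went both ways. Over all genes tested 7.48% were called higher and 4.42% lower, the shares to set beside each count here. Of 7 TGF-beta and activin ligands tested, 2 rose: TGFB1 by 0.69 (SE 0.10, adjusted p = 4.2e-04), and the little-expressed INHBE, an activin subunit, by 2.72 (SE 0.55, adjusted p = 0.0058), from 4 to 15 counts in non-stimulated libraries to 60 to 80. Of 6 BMP and GDF ligands, BMP4 fell by 0.65 on the log2 scale (adjusted p = 1.3e-05), from 14773 ± 87.3 to 9402 ± 261 normalized counts (SD, n = 3), the opposite direction to BMP2. Of 12 receptors and co-receptors, 5 fell and 1 rose, but in a fit of the 6 libraries alone only TGFBR2 and BAMBI fell and none rose. The largest falls were in BAMBI, a pseudoreceptor that damps the signal (-0.79, adjusted p = 0.022), the type II receptor TGFBR2 (-0.65, adjusted p = 2.6e-04), the co-receptor TGFBR3 (-0.55, adjusted p = 0.040) and the activin receptor ACVR1B (-0.52, adjusted p = 0.024). With 6 libraries the adjusted p was 0.098 for TGFBR3 and 0.080 for ACVR1B. The co-receptor ENG rose by 0.40 (adjusted p = 0.034), which did not hold with library totals (0.26, adjusted p = 0.086) or with 6 libraries (adjusted p = 0.094). AMHR2, the receptor of anti-Müllerian hormone, had 16, 18 and 25 counts with ADP-heptose, 0 in each flagellin library and 2, 0 and 0 in non-stimulated cells, and since it passed the filter through the ADP-heptose group it is given as counts, with no test.

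Of the 5 other SMADs, SMAD5 of the BMP branch fell by 0.47 (adjusted p = 0.013). SMAD4, the shared partner, had 456 to 806 counts in every library, and its log2 difference was -0.16 (SE 0.12, adjusted p = 0.45). Transcript counts do not show whether a protein is made. Outside the cell, of 5 antagonists tested FSTL3, a follistatin-like protein that binds activins, rose by 2.54 (SE 0.14, adjusted p = 1.1e-07) and the BMP antagonist SOSTDC1 fell by 0.94 (adjusted p = 0.028). After flagellin FSTL3 was the pathway gene called with all 9 libraries, at 0.79 (SE 0.14, adjusted p = 0.038). Of 9 genes that store or activate latent TGF-beta, 3 rose and none fell, against 7.48% and 4.42% of all genes. The 3 were the integrin subunits ITGAV (1.31, adjusted p = 3.4e-06) and ITGB8 (0.86, adjusted p = 0.0012), which pair in an activating integrin, and thrombospondin THBS1 (1.06, adjusted p = 2.8e-05).

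Of 27 other intracellular regulators, 3 rose and 3 fell, against 7.48% and 4.42% of all genes. Those that rose included TGIF2, the close relative of TGIF1 (1.19, SE 0.09, adjusted p = 3.1e-06) and PMEPA1, which sequesters SMAD2 and SMAD3 (0.64, adjusted p = 1.9e-04). The ones that fell were MTMR4 (-0.38, adjusted p = 0.023), WWP1, a ubiquitin ligase related to the SMURFs (-0.30, adjusted p = 0.031), and TOB1 (-0.27, adjusted p = 0.015). These 3 lost their calls when only the 6 libraries compared were fitted (adjusted p = 0.068 to 0.091).

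Of 18 TGF-beta target genes tested, 9 rose and 1 fell after ADP-heptose, against 7.48% and 4.42% of all genes. The median over the 18 was 0.43. The rises included those of ATF3, a stress-induced transcription factor (4.02, adjusted p = 9.5e-12), PDGFB, a growth factor (3.81, adjusted p = 5.4e-11), and CDKN1A, the cell cycle inhibitor p21 (2.72, adjusted p = 8.7e-10). These genes are also known targets of stress and inflammatory signals. CCN2 fell by 0.56 (adjusted p = 0.0043). Of 8 BMP target genes tested, none rose and 2 fell, against the same shares of all genes. ID2 fell by 0.62 (adjusted p = 7.6e-05) and GATA2 by 1.24 (adjusted p = 7.0e-04). ID2 went from 4576 ± 191 to 2970 ± 189 normalized counts (SD, n = 3) while BMP2 rose and BMP4 fell. In RPKM BMP4 was the higher of these ligands, at 119 in non-stimulated cells and 75.7 with ADP-heptose. BMP2 was at 2.63 and 12.5. With ADP-heptose replicate 3 left out, 28 of 101 pathway genes rose and 17 fell, against 11.2% and 7.07% of all genes. The 101 include unscreened genes that the fit of all 9 libraries did not test. INHBA, counted among the 28, had 22, 22 and 8 counts with ADP-heptose and 0 in every other library, so it passed through that group. With library totals it was 16 and 21 of 97, against 5.27% and 10.8% of all genes, a scaling that moved the median of all genes by -0.14 log2 units.

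**Figure D5:**
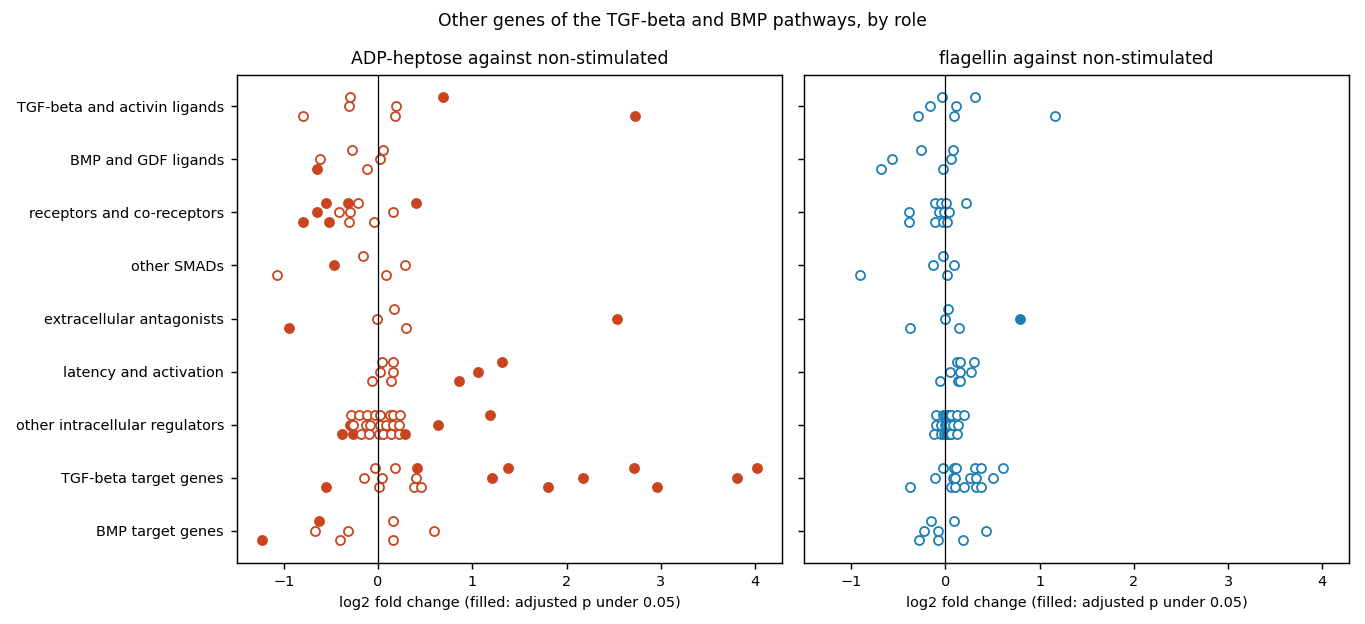
Log2 fold changes of the other TGF-beta and BMP pathway genes that passed the filter, 1 row per role and 1 point per gene (the 5 left out of the counts are not drawn), after ADP-heptose (left) and flagellin (right), each against non-stimulated cells. Filled points have an adjusted p under 0.05: the TGF-beta targets hold 9 to the right, the receptors hold 5 to the left, and after flagellin the filled point is FSTL3.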

How the data were processed

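RNA was sequenced as paired reads of 150 bases from poly(A)-enriched libraries. The authors aligned the reads with HISAT2 and counted them per gene with featureCounts, so the deposited values are raw counts with no normalization. Versions, genome build, annotation and the use of strand are not given in the sources used here. The table has 62972 lines for 62710 gene identifiers. The 232 repeated identifiers carry identical counts on each of their lines and were used once. Groups came from the sample labels, dose and time from the study's methods, which describe 3 independent experiments.

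Genes were tested with edgeR 4.0.16 (R 4.3.3; TMM factors, filterByExpr, robust quasi-likelihood fit of all 9 libraries) with Benjamini-Hochberg adjustment over 17412 genes, two-sided, threshold 0.05. SE is the size of the log2 fold change divided by the root of F. With 3 against 3 libraries an exact permutation test cannot go below p = 0.1, so none was run. Library totals were 30770448 to 58272772 counts. Intervals are for the log2 difference between groups, with the spread between libraries estimated over all 9. They do not give the range of single libraries. Normalized counts are counts scaled by the TMM-adjusted totals. RPKM used the exon-union length of each gene in GENCODE 29, which also gave positions on GRCh38. DESeq2 1.42.0, other scalings and filters, a fit blocked by replicate number and fits lacking 1 library were tried, and scripts were tested on simulated data.

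All 10 feedback genes were named. Of each pathway list the called genes were named, at most 4 higher and 4 lower by size of change after ADP-heptose, and SMAD4. Some genes that this rule would name are counted but not reported here by name. The genes and the lists were chosen with earlier results of these data known.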

Additional observations from a re-analysis of the deposited data

How the results depend on the processing

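BMP2, SKIL and SMAD3 kept their calls against non-stimulated cells and against flagellin under all 17 alternatives, and so did SMURF1 against non-stimulated cells. Over 510 values of the 10 genes, 450 kept direction and side of the threshold, 8 lost the call and 18 gained one. The other 34 changed sign, all of them differences of at most 0.11 log2 units. Causes were not tested.

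Feedback genes called higher against non-stimulated cells numbered 4, and 4 to 7 with single libraries left out (7 without ADP-heptose replicate 3) or 1 at 2-fold. Those called lower numbered 0, with 0 to 1 over left-out libraries and 1 with length and GC offsets. Against flagellin they numbered 4 higher and 0 lower, 3 to 7 higher and 0 to 1 lower over left-out libraries, 1 higher at 2-fold and 1 lower with the offsets. After flagellin, 0 were called, but 1 with no filter, 2 in a fit of the 6 libraries and 0 to 2 over left-out libraries. Over all genes, ADP-heptose against non-stimulated gave 1302 higher and 770 lower. Those numbers were 504 and 82 at 2-fold, 917 and 1886 with library totals, and 1677 and 1272 with the offsets. They were 979 and 433 with 6 libraries, and 925 to 2018 and 392 to 1270 over left-out libraries. Flagellin gave 64 higher and 2 lower, 114 and 10 without the filter, 102 and 4 with DESeq2, 140 in the 6-library fit, 37 higher at 2-fold, and 38 to 165 and 0 to 6 over left-out libraries. ADP-heptose against flagellin gave 940 and 481. It gave 359 and 50 at 2-fold, 708 and 1064 with library totals, 1348 and 938 with the offsets, 735 and 269 with 6 libraries, and 677 to 1798 and 233 to 923 over left-out libraries. Without ADP-heptose replicate 3 each of these ranges was at its highest. The genes called lower were fewest without any 1 non-stimulated library in the first comparison (392 to 490) and without any 1 flagellin library in the last (233 to 266), and the genes called higher by flagellin were fewest without its replicate 1 or any 1 non-stimulated library (38 to 42).

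No pairing by replicate number was seen: deviations of same-numbered libraries from their group means correlated at -0.37 to 0.22. The best match had the same number only for non-stimulated replicate 3 against flagellin and for flagellin replicate 2 against ADP-heptose. This check cannot exclude pairing, since deviations within a group of 3 are not independent. Those with ADP-heptose also hold the length trend of replicate 3. With a replicate block, 4 feedback genes were called higher against non-stimulated cells and 3 against flagellin, SMURF1 missing (adjusted p = 0.057). Over all genes the block gave 1064 higher and 523 lower for ADP-heptose, 45 and 1 for flagellin, and 784 and 327 between the stimuli.

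Between ADP-heptose and non-stimulated cells, the differences that changed sign were SMAD6 (-0.094 with library totals, -0.023 with the offsets, -0.022 to 0.097 over left-out libraries) and TGIF1 (-0.017 with library totals). Between flagellin and non-stimulated cells, the differences that changed sign were SMAD7 (-0.011 with library totals, -0.0035 with no filter, -0.039 with the offsets, -0.10 to 0.12 over left-out libraries), SKI (-0.00018 with library totals, -0.032 with the offsets, -0.038 to 0.064 over left-out libraries) and ID1 (-0.013 with library totals, -0.0070 with no filter, -0.0033 with a mean of at least 10 counts, -0.00075 in the 6-library fit, -0.049 with the offsets, -0.078 to 0.053 over left-out libraries). Between ADP-heptose and flagellin, the differences that changed sign were SMAD6 (-0.074 to 0.045 over left-out libraries), TGIF1 (-0.11 with library totals, -0.0091 to 0.038 over left-out libraries), SMURF2 (-0.0078 with library totals) and ID1 (-0.28 to 0.0015 over left-out libraries).

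Limits of these data are 3 libraries per group, 1 time and 1 dose, 1 cell line, 1 library that stood apart, and unknown strand in counting. Depth was not limiting for the 10 genes, each with at least 273 counts in a library.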
